A study of Sus scrofa with 4 samples.

Results

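Collagen-modifying and processing enzymes are described here in lung cells of pigs sorted by an LGR5 reporter. The 10 genes were taken by name from the count tables: P4HA1, P4HA2, P4HA3, PLOD1, PLOD2, PLOD3, P3H1, CRTAP, FKBP10 and PCOLCE. All 10 were found among the 29263 genes of each table, and all 10 passed the filter on low counts. The pigs have the genotype LGR5-H2B-GFP knock-in, where a fluorescent histone is made under the control of LGR5, the gene of a receptor for the R-spondin proteins that amplify Wnt signalling. Dissociated lung cells with bright fluorescence (GFP-HI) were sorted apart from cells that lacked it (GFP-NEG). Bulk RNA of both kinds of cells was sequenced in 2 biological replicates. All 4 libraries share the knock-in genotype and the tissue, and no treatment is named. The protocol covers adult and fetal lung, and only the name of the authors' comparison table, which says adult, gives a stage. Cells that have kept the stable histone label after LGR5 was switched off cannot be told apart from cells that transcribe it.

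A collagen chain is modified before it can fold. In the endoplasmic reticulum, prolyl 4-hydroxylases convert proline to 4-hydroxyproline, which stabilises the triple helix, and lysyl hydroxylases convert lysine to hydroxylysine, which carries sugars and later forms cross-links. A complex of prolyl 3-hydroxylase 1, CRTAP and cyclophilin B modifies single prolines and chaperones the chains, and FKBP10 encodes FKBP65, a prolyl isomerase that assists folding and lysine hydroxylation. Outside the cell, procollagen C-proteinase enhancer speeds the removal of the C-terminal propeptide, after which the molecules assemble into fibrils. In the lung these genes are best known from fibroblasts, smooth muscle and cartilage.

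The GFP-HI libraries were deeper, with 24200550 and 24689986 counts against 6292253 and 7045652, so depth and group cannot be told apart by design. LGR5 itself was at 146 and 152 CPM in GFP-HI and at 1.55 and 0.767 CPM in GFP-NEG, where CPM are counts per 1000000 of a library total scaled by the trimmed mean of M-values (TMM). The fibroblast markers summed to 33838 and 40868 CPM in GFP-HI and to 9142 and 1996 CPM in GFP-NEG, with 12 of 13 tested genes higher in GFP-HI, and all 13 had counts in both groups. The fibroblast marker sum was 4.58 times as high in GFP-NEG replicate 1 as in GFP-NEG replicate 2. Immune markers summed to 396 and 569 CPM in GFP-HI and to 2951 and 3482 CPM in GFP-NEG, with 11 of 15 lower in GFP-HI. Chondrocyte markers summed to 452 and 313 CPM in GFP-HI and to 8156 and 1053 CPM in GFP-NEG, with 9 of 10 tested genes lower in GFP-HI. Endothelial markers (9 of 11 lower) summed to 219 and 220 CPM in GFP-HI and to 1434 and 603 CPM in GFP-NEG. Epithelial markers (5 of 12 lower) summed to 371 CPM in both GFP-HI libraries and to 853 and 259 CPM in GFP-NEG. In bulk samples, fewer cells of a type and less RNA per cell cannot be told apart, and the part of these markers in the results below was not tested.

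Of the 10 enzymes, P4HA2, FKBP10, PCOLCE and CRTAP were higher in GFP-HI past an adjusted p-value of 0.05 (edgeR quasi-likelihood test, Benjamini-Hochberg over all tested genes). Of all 19682 tested genes, 8.35% were called higher and 27.6% were called lower. Among the 10170 tested genes with a mean level at least that of the lowest enzyme, 15.1% were called higher. No enzyme was called lower (0 of 10, also 0 at an unadjusted p under 0.05 and 0 in DESeq2). The fitted log2 fold change was positive for all 10, from 0.49 for PLOD2 to 2.51 for P4HA2, with a median of 1.37 against -0.25 over all tested genes. Both GFP-HI libraries lay above both GFP-NEG libraries for 7 of the 10, against 27.7% of all tested genes. Both lay below for 0 of the 10, against 42% of all tested genes, and the groups overlapped for PLOD2, PLOD3 and P3H1. The summed level of the 10 genes was 2770 and 1949 CPM in GFP-HI and 1141 and 420 CPM in GFP-NEG. In GFP-NEG the sum of the enzymes was 2.72 times as high in replicate 1 as in replicate 2. Replicate 1 was also the higher GFP-NEG library for the fibroblast, chondrocyte, smooth muscle, endothelial and epithelial marker sums, and the lower for the immune marker sum.

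**Figure D1:**
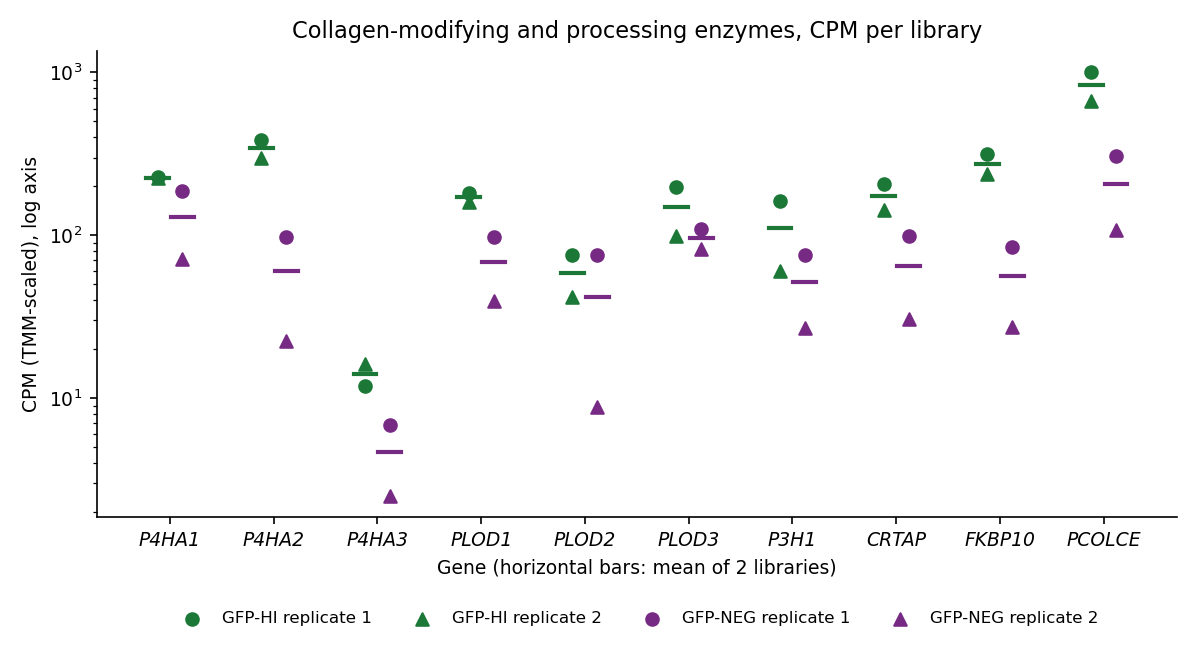
Level of each enzyme gene in each of the 4 libraries, in TMM-scaled CPM on a log axis, with green for GFP-HI, purple for GFP-NEG, circles for replicate 1, triangles for replicate 2 and horizontal bars for the mean of 2 libraries. The 2 GFP-NEG libraries stand far apart for most genes, for example at 98.0 and 22.5 CPM for P4HA2, whose GFP-HI libraries are at 385 and 299 CPM.

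The count of called enzymes depended on which GFP-NEG library was used. It was 8 of 10 without GFP-NEG replicate 1, where 7.62% of all tested genes were called higher, and 0 of 10 without GFP-NEG replicate 2, where the share of all genes also fell, to 1.23%. It was 2 of 10 without GFP-HI replicate 1 and 2 of 10 without GFP-HI replicate 2, against 5.23% and 3.03% of all genes. In these fits the lone library of a group is assumed to vary like the others. With the replicate number as a block, which pairs the fractions of 1 animal, 6 of 10 were called, adding P4HA3 and PLOD1, against 8.67% of all genes. All 10 enzymes were higher in GFP-HI within replicate 1 and within replicate 2, and the difference was larger within replicate 2 for 9 of them. GFP-NEG replicate 1 lay above GFP-NEG replicate 2 for 10 of 10 genes, by a median of 1.50 on the log2 scale. The median gap between the GFP-HI libraries was 0.48.

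The prolyl 4-hydroxylase is a tetramer of catalytic alpha subunits, encoded by P4HA1, P4HA2 and P4HA3, and of beta subunits encoded by P4HB. P4HA2 was at 385 and 299 CPM in GFP-HI and at 98.0 and 22.5 CPM in GFP-NEG. Both GFP-HI libraries were several times above both GFP-NEG libraries. On the log2 scale the fitted difference was 2.51 ± 0.65 (SE; adjusted p of 0.00066, edgeR), with 1.98 within replicate 1 and 3.73 within replicate 2. Here and below, an edgeR SE, interval or p-value rests on the scatter common to genes of like level. It does not measure the spread of the gene's own replicates. The fold change was 3.98 without GFP-NEG replicate 1, and 1.77 without GFP-NEG replicate 2, where the call was lost (adjusted p of 0.27, edgeR). P4HA2 kept its call in 12 of 13 alternatives.

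P4HA1, the widely expressed alpha subunit, was at 228 and 224 CPM in GFP-HI and at 188 and 71.4 CPM in GFP-NEG. Its GFP-HI libraries were nearly equal, and the higher GFP-NEG library came close to them. A log2 fold change of 0.80 ± 0.61 (SE) did not pass the threshold (adjusted p of 0.32, edgeR), and its 95% interval ran from -0.39 to 2.00. The difference was 0.28 within replicate 1 and 1.65 within replicate 2.

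P4HA3, the third alpha subunit, had few counts, 263 and 326 for GFP-HI against 44 and 23 for GFP-NEG. It was at 11.9 and 16.2 CPM in GFP-HI and at 6.83 and 2.52 CPM in GFP-NEG, with the groups apart. Its log2 fold change was 1.60 ± 0.71 (SE; adjusted p of 0.065), and it was past the threshold with the replicate block (1.72, adjusted p of 0.030, edgeR) but not in DESeq2 with the same block (adjusted p of 0.19).

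The balance between the alpha subunits differed between the fractions. P4HA2 made up 61.6% and 55.4% of the counts of the 3 alpha subunit genes in the GFP-HI libraries (95% Wilson intervals of 60.8 to 62.5 and 54.5 to 56.4). It made up 33.5% and 23.3% in GFP-NEG (31.4 to 35.7 and 20.7 to 26.2). These intervals cover counting error only, and the shares are not corrected for transcript length, which cancels when 1 ratio is compared between libraries. The log2 ratio of P4HA2 to P4HA1 was 0.76 and 0.42 in GFP-HI, against -0.94 and -1.67 in GFP-NEG, a mean difference of 1.89. P4HA2 therefore had more counts than P4HA1 in both GFP-HI libraries and fewer in both GFP-NEG libraries. The log2 ratio of P4HA3 to P4HA1 was -4.26 and -3.80 in GFP-HI, against -4.78 and -4.82 in GFP-NEG, also without overlap. With 2 libraries in each group an exact two-sided permutation test cannot go below 0.333, the value reached for both ratios (4 isozyme ratios were compared).

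**Figure D2:**
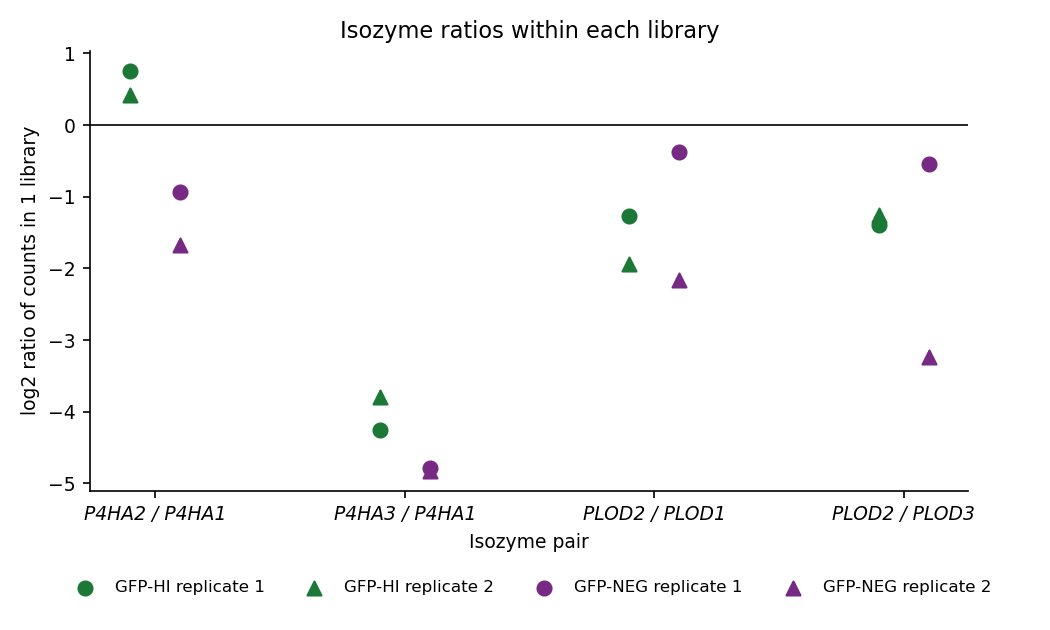
Log2 ratio of the counts of 2 isozyme genes within each library, in green for GFP-HI and purple for GFP-NEG, with circles for replicate 1 and triangles for replicate 2. The groups do not overlap for P4HA2 against P4HA1 (0.76 and 0.42 in GFP-HI, -0.94 and -1.67 in GFP-NEG) and overlap for both PLOD2 ratios.

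The beta subunit gene P4HB, which also encodes protein disulfide isomerase, is named here as the partner of the alpha subunits and was chosen after its values were seen. It was at 141 and 60.1 CPM in GFP-HI and at 47.0 and 25.8 CPM in GFP-NEG. P4HB was called higher, with a log2 fold change of 1.47 ± 0.53 (SE; adjusted p of 0.020, edgeR). This call was lost under 3 of 9 alternatives that kept all libraries, including scaling by library size alone (adjusted p of 0.083). It was also lost without GFP-HI replicate 1, where the log2 fold change was 0.85, and without GFP-NEG replicate 2, where it was 1.06. The ratio of P4HA2 to P4HB was higher in GFP-HI, at 1.45 and 2.32 on the log2 scale against 1.06 and -0.20, whereas that of P4HA1 to P4HB overlapped between the groups, at 0.69 and 1.90 against 2.00 and 1.47.

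The 3 lysyl hydroxylases, encoded by PLOD1, PLOD2 and PLOD3, did not pass the threshold in the edgeR fit with group as the only term. PLOD1 encodes the enzyme that acts mainly on lysines of the helical region. It was at 181 and 160 CPM in GFP-HI and at 97.7 and 39.4 CPM in GFP-NEG, with the groups apart. Its log2 fold change was 1.32 ± 0.58 (SE; adjusted p of 0.059), and 1.46 with an adjusted p of 0.047 with the replicate block (edgeR). In DESeq2 the adjusted p was 0.025 with the same block and 0.063 without it. Without GFP-NEG replicate 1 it was 2.17, and without GFP-NEG replicate 2 it was 0.77.

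PLOD2 encodes the hydroxylase of the telopeptides, the short ends where stable cross-links form. It was at 75.6 and 41.6 CPM in GFP-HI and at 75.1 and 8.77 CPM in GFP-NEG, so that 1 GFP-NEG library was as high as the higher GFP-HI library and the other was lower than all. PLOD2 had a log2 fold change of 0.49 ± 0.51 (SE; adjusted p of 0.50, edgeR). This SE does not reflect how far apart its own libraries were, and the SE in DESeq2 without the block was 0.78. The difference was 0.01 within replicate 1 and 2.25 within replicate 2. The fitted value was 2.79 without GFP-NEG replicate 1 and turned to -0.40 without GFP-NEG replicate 2. The log2 ratio of PLOD2 to PLOD1 was -1.26 and -1.94 in GFP-HI, against -0.38 and -2.17 in GFP-NEG, and that to PLOD3 was -1.39 and -1.26 against -0.54 and -3.24. The GFP-NEG libraries enclosed the GFP-HI libraries in both ratios.

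PLOD3 encodes an enzyme that also transfers sugars to hydroxylysine. It was at 198 and 99.5 CPM in GFP-HI and at 109 and 82.9 CPM in GFP-NEG, and the lower GFP-HI library lay between the GFP-NEG libraries. PLOD3 had a log2 fold change of 0.63 ± 0.57 (SE; adjusted p of 0.42, edgeR), and the 95% interval ran from -0.49 to 1.75. It was the only enzyme of the 10 with a smaller difference within replicate 2 (0.26) than within replicate 1 (0.86). The log2 ratio of PLOD3 to PLOD1, a pair chosen after the values were seen, was 0.13 and -0.68 in GFP-HI, against 0.16 and 1.07 in GFP-NEG.

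P3H1 and CRTAP encode the catalytic and the helper protein of the prolyl 3-hydroxylation complex. CRTAP was at 205 and 143 CPM in GFP-HI and at 99.5 and 30.5 CPM in GFP-NEG, with the groups apart. It rose by a log2 fold change of 1.42 ± 0.58 (SE; adjusted p of 0.039, edgeR). This call was the least stable of the 4, since it was lost in 9 of 13 alternatives, with adjusted p-values between 0.052 and 0.71 there. P3H1 was at 162 and 60.5 CPM in GFP-HI and at 75.8 and 26.9 CPM in GFP-NEG. The lower GFP-HI library was below the higher GFP-NEG library, yet the differences within the replicates were close to each other, at 1.10 and 1.17. Its log2 fold change of 1.12 ± 0.54 (SE) had an adjusted p of 0.094, and 0.097 with the replicate block (edgeR). Without GFP-HI replicate 1 the value was 0.34, and without GFP-NEG replicate 1 it was 2.10. PPIB, which encodes the third protein of the complex, cyclophilin B, was at 369 and 773 CPM in GFP-HI and at 229 and 146 CPM in GFP-NEG. The fitted log2 value, 1.60 ± 0.71 (SE), was not called by edgeR (adjusted p of 0.064) but was called by DESeq2 (0.016). In the GFP-HI libraries PPIB was lower in the library in which P3H1 and CRTAP were higher.

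FKBP10 was at 315 and 236 CPM in GFP-HI and at 84.8 and 27.3 CPM in GFP-NEG. Both GFP-HI libraries were well above both GFP-NEG libraries. FKBP10 rose by a log2 fold change of 2.30 ± 0.63 (SE; adjusted p of 0.0012, edgeR), and the difference was 1.89 within replicate 1 and 3.11 within replicate 2. The value was 3.39 without GFP-NEG replicate 1, and 1.66 without GFP-NEG replicate 2, the 1 alternative of 13 in which the call was lost (adjusted p of 0.30). FKBP65 is known to act with the PLOD2 enzyme. The log2 ratio of FKBP10 to PLOD2, chosen after the values were seen, was 2.06 and 2.50 in GFP-HI, against 0.17 and 1.64 in GFP-NEG, higher in GFP-HI within both replicates.

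PCOLCE, whose product is secreted and works outside the cell, was at 1007 and 668 CPM in GFP-HI and at 307 and 108 CPM in GFP-NEG, with the groups apart. PCOLCE rose by a log2 fold change of 2.01 ± 0.76 (SE; adjusted p of 0.027, edgeR). The difference was 1.71 within replicate 1 and 2.63 within replicate 2. Its call was lost in 3 of the 4 fits that left out a library, with a value of 1.41 without GFP-NEG replicate 2, and the fold change was 3.01 without GFP-NEG replicate 1.

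**Figure D3:**
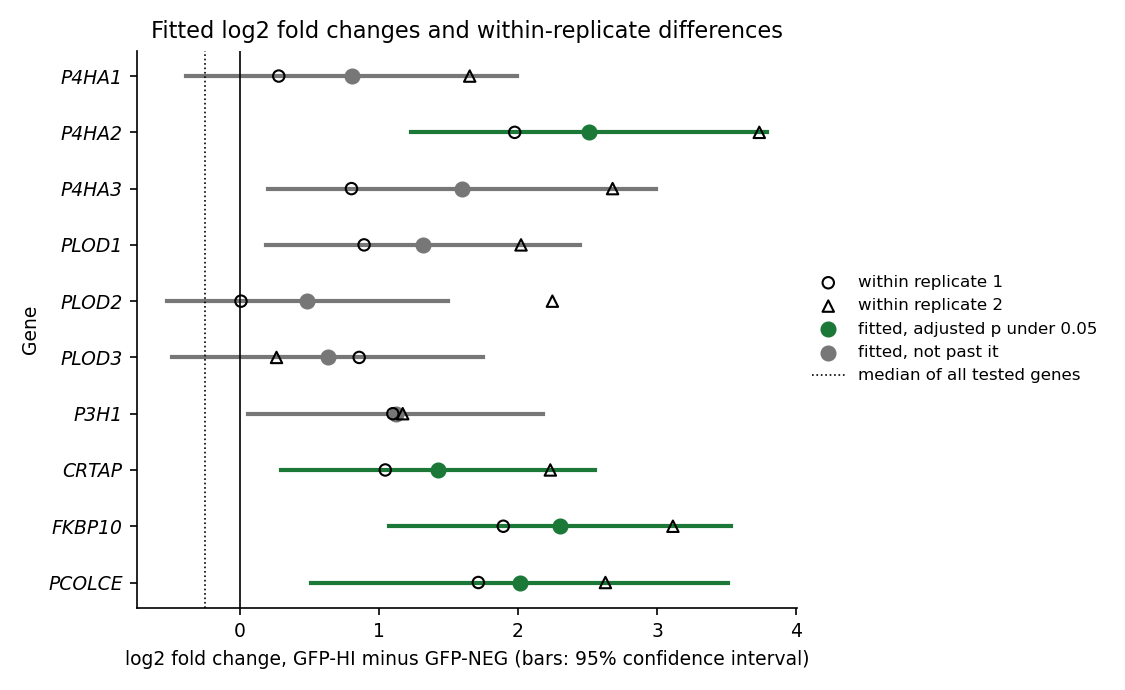
Fitted log2 fold change of each enzyme gene, GFP-HI minus GFP-NEG (filled points, bars for the 95% confidence interval, green where the adjusted p was under 0.05), with the differences within replicate 1 (open circles) and replicate 2 (open triangles) and the median of all tested genes at -0.25 (dotted line). P4HA2, FKBP10, PCOLCE and CRTAP are green, and for PLOD2 the replicates differ most, at 0.01 and 2.25.

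The authors' deposited table gives positive log2 fold changes for all 10 enzymes and an adjusted p under 0.05 for 3 of them. It holds 16250 genes, and the share of them called higher was not computed. The DESeq2 fit without a block made here gave the same values for the enzymes and called 1354 genes higher and 6024 lower. P4HA2 is at 2.51 (adjusted p of 0.0011) in the authors' deposited table, FKBP10 at 2.30 (0.0012) and PCOLCE at 2.01 (0.0040). CRTAP is at 1.42 with an adjusted p of 0.063 in the authors' deposited table, on the other side of the threshold from the edgeR fit.

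The enzymes were next set against their main substrate. COL1A1 and COL1A2 encode the chains of collagen I. COL1A1 was at 19484 and 11907 CPM in GFP-HI and at 5644 and 2899 CPM in GFP-NEG. COL1A2 was at 30097 and 23559 CPM in GFP-HI and at 12185 and 3326 CPM in GFP-NEG. Their log2 fold changes of 1.88 and 1.79 missed the threshold with edgeR (adjusted p-values 0.36 and 0.46) and passed it with DESeq2 (0.0035 and 0.016). Relative to the summed counts of both chains in the same library, 3 enzymes were higher in GFP-HI without overlap, 5 were lower without overlap and 2 overlapped (P4HA3 and PLOD2). The log2 ratio of P4HA2 to collagen I was higher in GFP-HI by 0.86 on average (0.50 within replicate 1 and 1.22 within replicate 2), that of FKBP10 by 0.51 (0.42 and 0.60) and that of PCOLCE by 0.18 (0.24 and 0.12). For P4HA1 the same ratio was lower in GFP-HI, with a mean difference of -1.03 (-1.20 and -0.86), for PLOD3 of -1.43 (-0.62 and -2.25) and for P3H1 of -0.86 (-0.38 and -1.34). PLOD1 and CRTAP were at -0.54 and -0.35. The 2 GFP-NEG libraries, which differed by 2.12 in log2 CPM for P4HA2, differed by less in its ratio to collagen I (-7.51 and -8.11). For PLOD3 it was the reverse, since the GFP-NEG libraries differed by 0.40 in log2 CPM and had ratios of -7.35 and -6.23. For PCOLCE the ratio was within 0.24 in all 4 libraries, from -5.86 to -5.62. This reference was chosen after the values were seen, no test was made, and the chondrocyte collagen COL2A1 went the other way, at 210 and 83.9 CPM in GFP-HI and 5313 and 681 CPM in GFP-NEG.

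**Figure D4:**
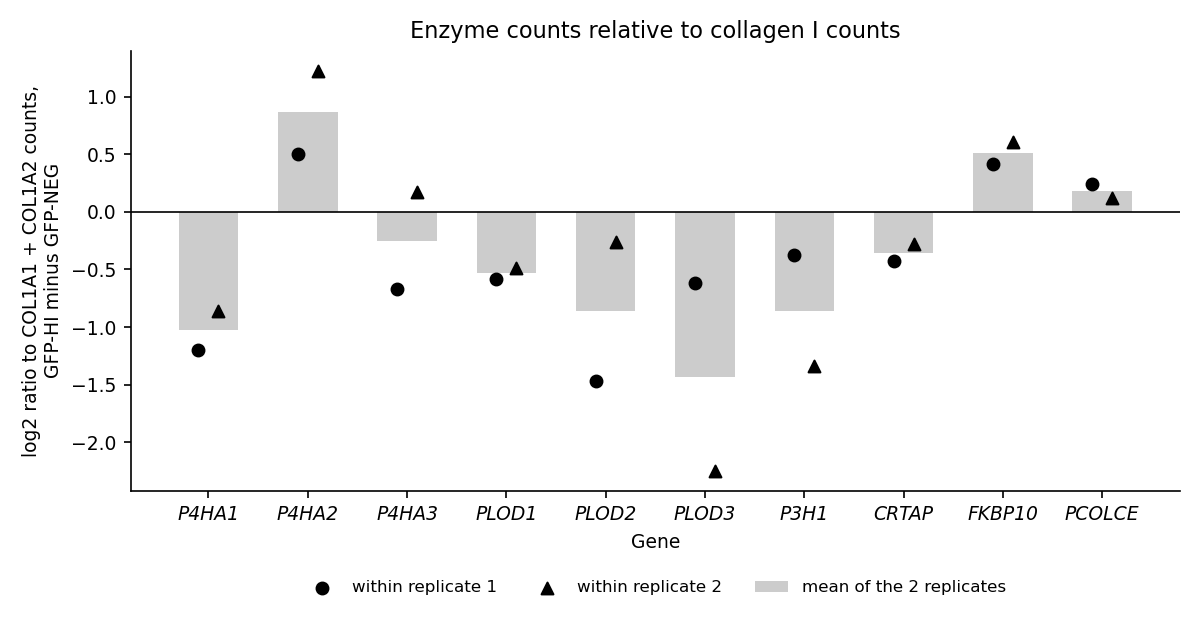
Difference between GFP-HI and GFP-NEG in the log2 ratio of each enzyme gene's counts to the summed counts of COL1A1 and COL1A2, within replicate 1 (circles), within replicate 2 (triangles) and their mean (bars from 0). P4HA2, FKBP10 and PCOLCE lie above 0 in both replicates, and P4HA1, PLOD1, PLOD2, PLOD3, P3H1 and CRTAP below it in both.

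Relative to PDGFRA, a receptor that marks lung fibroblasts, all 10 enzymes were lower in GFP-HI without overlap, with the smallest mean difference for P4HA2 (-1.10 within replicate 1 and -0.90 within replicate 2 on the log2 scale) and the largest for PLOD3 (-3.29). PDGFRA itself was at 822 and 563 CPM in GFP-HI and at 97.2 and 22.7 CPM in GFP-NEG, and rose by 3.53 in log2 units (edgeR, adjusted p of 6.8e-05). That fold change was above those of 99.5% of all tested genes, so nearly any gene would be lower relative to PDGFRA. The lower ratios therefore do not set the enzymes apart from other genes. For P4HA2 the ratio was nearly the same in both GFP-NEG libraries, at 0.01 and -0.01, and was -1.09 and -0.91 in GFP-HI. PDGFRA was chosen after the values were seen, and other fibroblast markers differed less between the fractions. The fitted log2 fold changes of the 13 tested markers ran from 1.44 for THY1 to 4.397 for FBLN1, with a median of 2.91. P4HA2 was below 8 of the 13 and above 5 (MFAP4, TCF21, FBLN2, FN1 and THY1). FKBP10 and PCOLCE were each above 4 of the 13, P4HA3 was above 3, and the other 6 enzymes were below all 13.

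Other genes of the pathway were counted from lists of related factors. Beside these counts, 8.35% of all tested genes were called higher and 27.6% lower, and no list was tested against these shares. Where a library is left out, the share of all genes called higher changes as well, as given above. Of 12 other enzymes and chaperones of procollagen in the endoplasmic reticulum, 7 were called higher and 0 lower (0 lower at an unadjusted p under 0.05 and 0 in DESeq2), with a median log2 fold change of 1.73. The 5 largest rises were in FKBP14 (3.25) and FKBP7 (3.09), prolyl isomerases of the same family as FKBP10, COLGALT2 (2.72), a galactosyltransferase for hydroxylysine, and P3H4 (2.47) and P3H3 (1.95), relatives of P3H1. Another relative, P3H2, went the other way, at -1.47 on the log2 scale, and was not called (adjusted p of 0.21, edgeR). Both GFP-HI libraries (2.76 and 2.28 CPM) lay below both GFP-NEG libraries (9.01 and 5.04 CPM) for P3H2. The call of P3H3 was lost under 4 of 9 alternatives that kept all libraries, among them DESeq2 with the replicate block (adjusted p of 0.063), and without GFP-HI replicate 1 or GFP-NEG replicate 2. FKBP14 was at 60.7 and 233 CPM in GFP-HI and at 17.5 and 13.4 CPM in GFP-NEG. P3H4 was at 44.1 and 35.4 CPM in GFP-HI and at 10.9 and 3.62 CPM in GFP-NEG. SERPINH1, which encodes the collagen chaperone HSP47, was at 1188 and 419 CPM in GFP-HI and at 443 and 71.4 CPM in GFP-NEG. SERPINH1, at 1.65 on the log2 scale, missed the threshold (adjusted p of 0.077) and passed it with the replicate block (0.022, edgeR). Without GFP-NEG replicate 2 the count of this list fell to 3 of 12.

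Of 6 genes of propeptide removal, 2 were higher and 2 lower. ADAMTS2, which encodes the procollagen N-proteinase, was at 678 and 532 CPM in GFP-HI and at 62.7 and 16.0 CPM in GFP-NEG, and rose by 3.94 in log2 units (edgeR, adjusted p of 6.8e-06). BMP1, the C-proteinase that the PCOLCE product enhances, was at 57.9 and 57.3 CPM in GFP-HI and at 15.2 and 4.17 CPM in GFP-NEG, higher in GFP-HI by 2.58 in log2 units (adjusted p of 5.5e-05). TLL1 and TLL2, relatives of BMP1 with under 60 counts in every library, were lower by fitted log2 fold changes of -3.86 and -4.38. Of 5 lysyl oxidases, the enzymes that start cross-linking, LOX (3.10) and LOXL1 (2.77) were higher. With the replicate block, ADAMTS14 (1.40, adjusted p of 0.049, edgeR) and LOXL2 (1.40, adjusted p of 0.037, edgeR) were also called higher, which made 3 of 6 and 3 of 5. Without GFP-NEG replicate 2, 1 of the 6 genes was higher and 0 lower, and 0 of the 5 lysyl oxidases passed the threshold.

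Of 11 genes of procollagen export from the endoplasmic reticulum and its control, CREB3L2 (2.38), a transcription factor for secretory genes, and TRAPPC2 (1.54) were called higher. TRAPPC2 lost its call under 7 of 9 alternatives that kept all libraries, among them the replicate block (adjusted p of 0.057, edgeR). Both calls were lost without GFP-NEG replicate 2. The median of this list was 1.08. Of 11 fibrillar collagen chains, 5 were higher, with COL5A1 at 3.13 and COL24A1 at 2.60, and 3 were lower. The lower chains were COL2A1 (-4.35), COL11A2 (-3.81) and COL11A1 (-3.43), the chains of cartilage fibrils. With a library left out, COL5A1 ran from 2.54 to 4.08 and COL24A1 from 1.41 to 3.41. In the same fits COL2A1 ran from -5.21 to -2.16, COL11A2 from -5.30 to -1.70 and COL11A1 from -4.29 to -1.30. The call of COL24A1 was lost in 2 of these fits and those of COL5A1, COL2A1 and COL11A1 in 1 each, while COL11A2 kept its call. COL2A1 is also 1 of the chondrocyte markers above.

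A list of 17 general folding and stress genes of the endoplasmic reticulum had 0 calls in edgeR and 0 in DESeq2 (0 higher and 1 lower at an unadjusted p under 0.05), with a median of 0.40. Other fits called 1 gene of it. CRELD2 was lower with the replicate block (-1.40, adjusted p of 0.030, edgeR) and under RLE scaling, upper-quartile scaling and library size alone, and XBP1 was higher in DESeq2 with the block (1.21, adjusted p of 0.036). CRELD2 was also called lower without GFP-HI replicate 1, at -2.04 on the log2 scale. The median fell to 0.10 with upper-quartile scaling and to 0.0019 with library size alone. HSPA5, the main chaperone of that compartment, was at 843 and 971 CPM in GFP-HI and at 846 and 530 CPM in GFP-NEG. Several of the enzymes, P4HA1 and PLOD2 among them, are known to be induced by hypoxia. Of 18 other hypoxia-inducible genes, VEGFA (1.42) and ADM (1.33) were called higher and PFKFB3 (-1.63) lower, and the median was -0.04. The calls of VEGFA and ADM were each lost under 6 of 9 alternatives that kept all libraries, and the groups overlapped in CPM for both genes. With a library left out, PFKFB3 ran from -2.20 to -1.05, and its call was lost in 2 of these fits. In DESeq2 without the block, with upper-quartile scaling and with library size alone, 0 of the 18 were higher and 3 were lower, PFKFB3 with LDHA and ALDOA, a pair of glycolytic enzymes. LDHA was at -1.57 in DESeq2 (adjusted p of 0.016). Of 6 genes for ascorbate transport and other 2-oxoglutarate-dependent hydroxylases, ASPH (2.01), which encodes an aspartyl hydroxylase, was called higher. Its log2 fold change ran from 1.33 to 3.22 with a library left out, and its call was lost in 3 of these fits. SLC23A2, a transporter of the ascorbate that prolyl and lysyl hydroxylases need, was at 46.3 and 38.5 CPM in GFP-HI and at 30.3 and 25.1 CPM in GFP-NEG (0.61 in log2 units, edgeR adjusted p of 0.38).

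**Figure D5:**
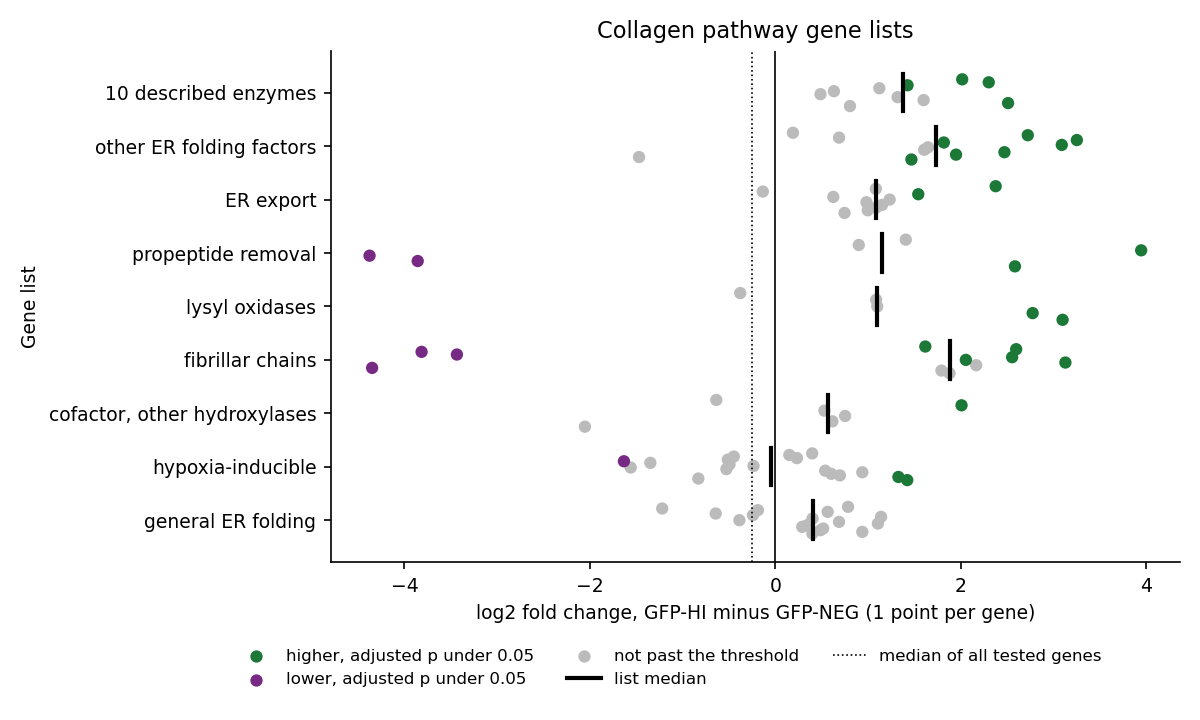
Log2 fold change, GFP-HI minus GFP-NEG, of each tested gene in the enzyme group and in 8 related lists, with green for genes called higher, purple for genes called lower, grey for genes not past the threshold, black bars for list medians and a dotted line for the median of all tested genes. The medians are 1.37 for the 10 enzymes, 1.73 for other folding factors of procollagen, 0.40 for general folding genes and -0.04 for hypoxia-inducible genes.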

How the data were processed

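RNA was sequenced from 4 libraries, 2 of GFP-HI and 2 of GFP-NEG cells. The authors deposited whole-number counts per gene, and the submitters' processing notes name featureCounts, Subread 1.5.2 and DESeq2 1.37.6. The aligner, genome build and strand setting are not given in the sources used here, and genes that overlap are uncertain. The authors also deposited a comparison table with an adjusted p-value and a log2 fold change per gene. The counts in it equal those of the single libraries, and its 4 columns of normalized values per library were not used. Of the gene identifiers, 834 were renamed by the name table.

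All genes were fitted with edgeR 4.0.16 (R 4.3.3): TMM scaling, filterByExpr (19682 genes kept, holding 99.8% of counts), the quasi-likelihood F test and group as the only term. The prior degrees of freedom were infinite, so the scatter used in each test came from the trend over all genes and not from a gene's own replicates. A standard error is the log2 fold change divided by the square root of F. DESeq2 1.42.0 was an alternative. The edgeR procedure was run on simulated data with less scatter between replicates than here, where the common dispersion was 0.239. That run therefore gives no error rate for these data. Replicate numbers pair the fractions because headers of the comparison table name 2 pigs, each with both fractions (correlation of deviations from the group means of 0.16 over genes). Members and lists were chosen with earlier results of these data known. All 10 enzymes are named, and of each list up to 5 called genes in each direction. The planned protein comparison was not made, because no sequence table was used here. The mesothelial list had 2 of 7 genes matched by name (WT1 and CALB2, neither tested, CALB2 at 0 in GFP-HI). Smooth muscle markers had 1 of 10 genes higher and 3 lower, and summed to 1759 and 2462 CPM in GFP-HI and to 2607 and 393 CPM in GFP-NEG.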

Additional observations from a re-analysis of the deposited data

How the results depend on the processing

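Of 130 fold changes of single enzymes under 13 alternatives, 129 were positive, 108 kept their side of the threshold, 14 lost the call, 7 gained it and 1 reversed (PLOD2, from -0.40 without GFP-NEG replicate 2 to 2.79 without GFP-NEG replicate 1). With each library left out in turn, the enzymes called higher ranged from 0 to 8, their median log2 fold change from 0.77 to 2.55, the genes called higher from 216 to 1635 and the genes called lower from 1575 to 4999. The replicate block gave 6 enzymes, a median of 1.55 and 1707 genes higher and 4793 lower. It changed the calls of P4HA3, PLOD1, SERPINH1, TRAPPC2, ADAMTS14, LOXL2 and CRELD2 among the enzymes and related lists. Upper-quartile scaling and library size alone gave 1083 and 888 genes higher, against 1643. DESeq2 with the block gave 3279 genes lower, and GFP-HI counts thinned to the depth of GFP-NEG gave 3591, against 5433. The median of all tested genes moved from -0.25 to -0.58 with upper-quartile scaling, -0.68 with library size alone, -1.21 with no filter on low counts, -1.30 in DESeq2 and -1.31 in DESeq2 with the block, and lay between -0.59 and 0.032 with a library left out. That of the hypoxia-inducible genes was 0.015 with no filter on low counts, -0.38 with upper-quartile scaling, -0.50 with library size alone and between -0.20 and 0.15 with a library left out. The DESeq2 fits and the fit with no filter kept every gene with a count, so their medians cover more genes than the -0.25 does. The cause of these changes was not tested. GFP-NEG was shallow, with 1 count worth 0.155 and 0.110 CPM, and P4HA3 had 44 and 23 counts there.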
